A study of Mus musculus with 9 samples.

Results

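The set comprised 10 genes of growth signalling in muscle: the ligands Igf1 and Igf2, the receptors Igf1r and Insr, the receptor substrates Irs1 and Irs2, the kinases Akt1 and Akt2, the growth inhibitor Mstn (myostatin) and its antagonist Fst (follistatin). They were listed by symbol, with the known effect of the mitochondrial calcium uniporter on muscle mass as the reason. All 10 were measured, each by 1 probe set, among 22206 probe sets that carry 19505 named genes. The values come from whole tibialis anterior, a mostly fast muscle at the front of the shin, hybridised to 9 Affymetrix Clariom S mouse arrays. MCU forms the pore of the uniporter, and the related protein MCUb joins it there. By its title the series concerns the role of MCUb in oxidative phosphorylation.

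The groups were MCU knockout (MCU-/-/MCUb+/+), MCUb knockout (MCU+/+/MCUb-/-) and control (MCU+/+/MCUb+/+), with 3 arrays each. All mice were 2 months old and on a C57/BL6 background. The labels name no Cre driver and do not say whether a deletion was restricted to muscle, so each knockout is described only by its alleles. Nor do they state that samples of 1 genotype came from different animals. In each knockout, Uty and Kdm5d, genes of the Y chromosome, were high on some arrays and low on others (values below). The arrays of a knockout therefore did not all come from 1 animal, and their spread includes differences between animals. Control arrays were all low for these genes, which leaves the point undecided there. The p-values reflect variation between arrays, and how much of it is technical was not tested.

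As background, insulin-like growth factors and insulin bind receptor tyrosine kinases, which phosphorylate the adaptor proteins IRS1 and IRS2. These recruit phosphoinositide 3-kinase, and the lipid it makes brings AKT to the membrane, where AKT drives glucose uptake and, through mTOR, protein synthesis. Myostatin, which muscle fibres secrete, signals through activin receptors and SMAD proteins and restrains muscle growth, and follistatin binds and blocks it.

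The deposited values were read as log2, and a difference of group means is on that scale. Above background means over the 95th percentile of the 23 background sets on the same array, a limit of 5.87 to 5.92. Between 45.3% and 45.9% of the probe sets did so. Mcu had log2 levels of 6.80, 6.98 and 7.06 in MCU knockout muscle, against 10.38, 10.96 and 10.46 in control muscle, so the targeted gene followed the labels there. All 12 muscle fibre markers were above background on every array, and none of 5 liver markers was on any. Control replicate 3 stood apart, at -70.8 on the first principal component (28.1% of the variance), where the other arrays lay between -20.3 and 21.9. Uty and Kdm5d, genes of the Y chromosome, had a mean level of 3.58, 7.56 and 7.24 in MCU knockout muscle, 7.80, 3.01 and 3.58 in MCUb knockout muscle, and 3.49, 3.12 and 3.89 in control muscle. This Y-linked level was high on 3 arrays, none of them a control. Uty was above background on 2 MCU knockout, 1 MCUb knockout and 0 control arrays. Eif2s3y, also of the Y chromosome, was not above background on any array, so the Y-linked level rests on Uty and Kdm5d alone. Sex is not named in the labels, so its balance over the genotypes is read only from such genes. None of the 10 genes separated these 3 arrays from the other 6, which 3.57% of all probe sets did. Some still varied with the Y-linked level over the 9 arrays. Pearson r was -0.78 for Akt1, 0.69 for Igf1, -0.63 for Mstn and -0.55 for Irs1, and between -0.10 and 0.18 for the rest. Akt1 was above background on 0 MCU knockout, 2 MCUb knockout and 2 control arrays, so its r rests on levels near the limit.

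None of the 10 genes passed the threshold in any comparison (limma, Benjamini-Hochberg adjusted p under 0.05 over all probe sets). Mstn was lower in every MCU knockout array than in every control array, by 1.75-fold on average, and Irs1 was lower in every MCUb knockout array than in every control array, by 2.58-fold. Igf2 was 1.55-fold higher in MCU knockout than in MCUb knockout muscle, again without overlap. Igf1 was the most variable of the set, with a range of 3.05 log2 units over the 9 arrays, and that whole range lay inside the MCU knockout group.

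Of all probe sets, 0.14% met the same threshold when MCU knockout was set against control, 0.0225% when MCUb knockout was, and 0.158% between the knockouts, so a count of 0 among 10 genes is near the background. At an unadjusted p under 0.05, 2 of the 10 genes stood out between MCU knockout and control (Igf2 higher, Mstn lower), where 10.1% of all probe sets did. Irs1 alone did so between MCUb knockout and control, against 8.11% of all probe sets. Between the knockouts 2 did so (Igf2 higher and Akt1 lower in MCU knockout), against 5.7% of all probe sets. Groups did not overlap for 1 gene between MCU knockout and control (Mstn), for 2 between MCUb knockout and control (Igf1 and Irs1) and for 1 between the knockouts (Igf2). The shares over all probe sets were 13.4%, 12.8% and 12.8% in those comparisons. Among the 8684 probe sets above background on all arrays, the shares without overlap were 15.9%, 14.4% and 15.0%. Their shares at an unadjusted p under 0.05 (limma) were 13.3%, 10.4% and 8.13%.

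The median difference of the 10 genes was -0.05 between MCU knockout and control, where that of all probe sets was -0.02. It was -0.15 between MCUb knockout and control (all probe sets -0.03) and 0.11 between the knockouts (all probe sets 0.01). Without regard to sign, the median difference was 0.45, 0.23 and 0.37, against 0.21, 0.20 and 0.16 over all probe sets, of which many were at background level. Over the probe sets above background on all arrays it was 0.24, 0.22 and 0.18. At the median standard error (SE), a log2 difference had to reach 1.43, 1.75 and 1.40 to pass. Where 3 arrays meet 3 arrays, an exact permutation test cannot give a p below 0.1. The plot of log2 levels by array shows each gene in the 3 genotypes.

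**Figure D1:**
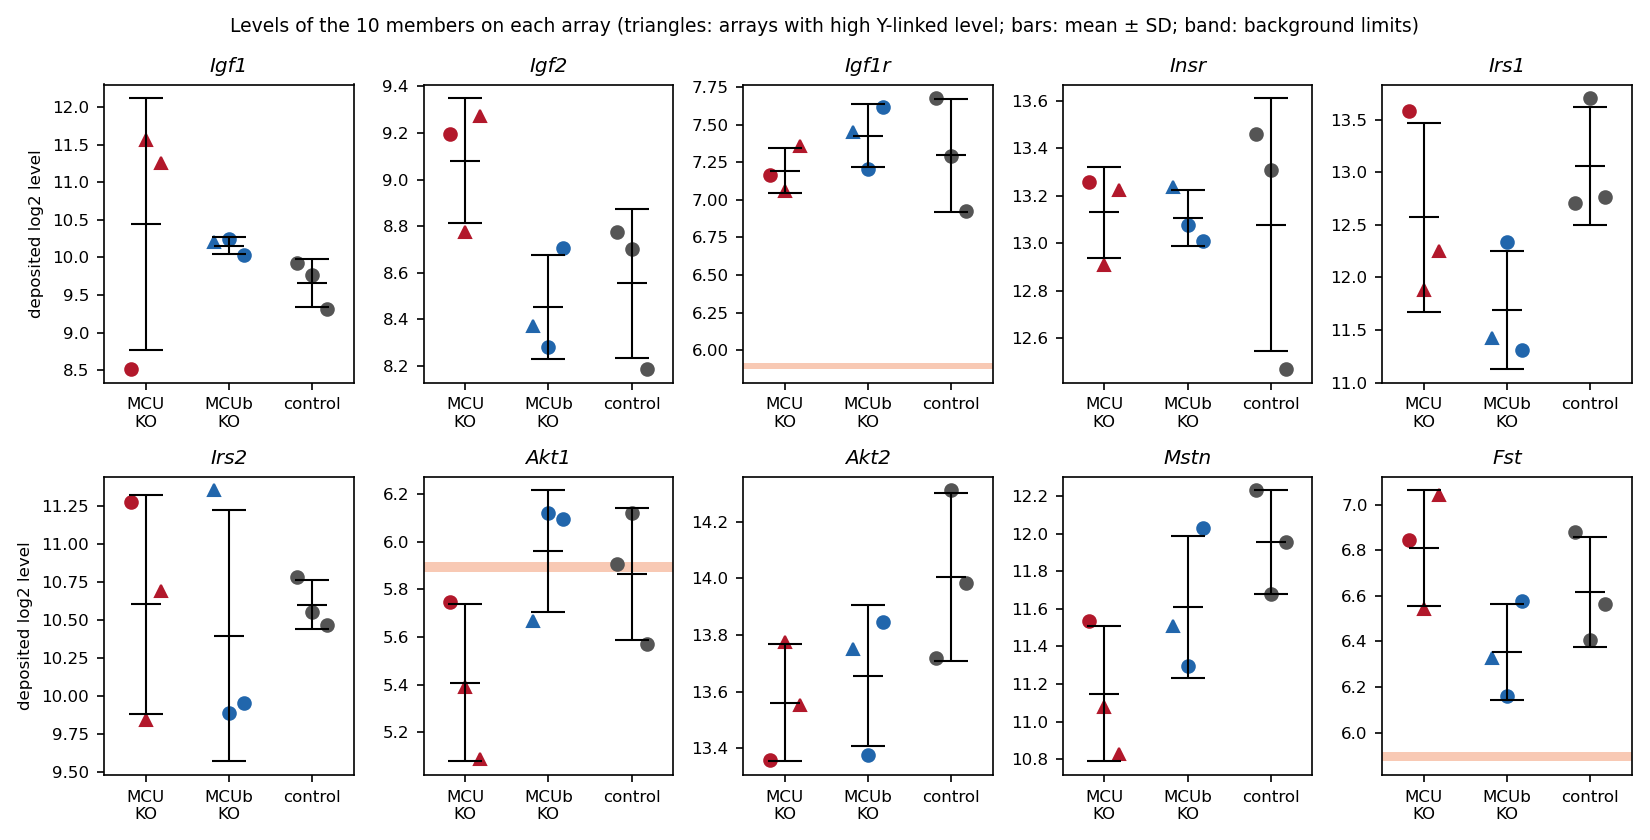
Deposited log2 level (vertical axis, a scale of its own for each gene) of the 10 growth signalling genes on each array of MCU knockout, MCUb knockout and control muscle. Points are arrays, triangles the 3 arrays with a high level of Uty and Kdm5d, bars the mean ± SD (n = 3), and the band the background limits of the arrays. The MCU knockout arrays of Mstn lie below all its control arrays, and 1 MCU knockout array of Igf1 lies at 8.51, below all others.

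Igf1 encodes insulin-like growth factor 1, a ligand that muscle makes locally (probe set on chromosome 10). Its log2 levels were 8.51, 11.56 and 11.25 in MCU knockout muscle, 10.20, 10.24 and 10.03 in MCUb knockout muscle, and 9.93, 9.76 and 9.31 in control muscle. MCU knockout replicates 2 and 3 were the highest of the 9 arrays and replicate 1 was the lowest. The means were 10.44 ± 1.68, 10.16 ± 0.11 and 9.67 ± 0.32 (SD), in the order MCU knockout, MCUb knockout and control, and MCU knockout did not differ from its neighbour beyond its own spread. The difference between MCU knockout and control was 0.78 (SE 0.61, 95% interval -0.57 to 2.12, adjusted p = 0.692). Every MCUb knockout array was above every control array, with a difference of 0.49 (SE 0.61, adjusted p = 0.843), and the SE shared over the genotypes carries the wide MCU knockout spread. Without MCU knockout replicate 1 the difference between MCU knockout and control was 1.74 (SE 0.23, adjusted p = 0.0236), and that between the knockouts was 1.25 (adjusted p = 0.111), against 0.28 with it. On the 6 arrays with low Y-linked level, where that replicate is the lone MCU knockout array and is assumed to vary like the other groups, the difference from control was -1.15 (adjusted p = 0.911). When the Y-linked level entered the model as a covariate, it was -0.04 (SE 0.61).

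The mean of the 6 measured fibroblast and matrix markers, of 9 listed, varied with Igf1. Of the 6 markers, 5 were above background on every array, and Thy1 was not above it on any. Their mean log2 level was 9.12, 10.45 and 10.14 in MCU knockout muscle, 9.44, 9.56 and 9.87 in MCUb knockout muscle, and 9.63, 9.24 and 9.57 in control muscle. For the marker mean and for Igf1, MCU knockout replicate 1 was thus lowest and replicates 2 and 3 were highest. Single markers did not all follow. Col1a1 and Col1a2 were lowest in MCU knockout replicate 1, but Dcn, Lum and Col3a1 in control replicate 2 (15.73, 11.47 and 6.82). Lum was highest in MCUb knockout replicate 3 (13.55). Over the 9 arrays Igf1 and the marker mean had Pearson r = 0.88 and Spearman rho = 0.70, as a description of arrays that share a platform and a normalization. Without MCU knockout replicates 2 and 3, the arrays farthest from the median of the marker mean, r was 0.61 and rho 0.36, so the relation rests largely on those arrays. Among the marker lists set against Igf1, this one had the highest r. Over the 9 arrays the others gave 0.70 (satellite cell), 0.32 (macrophage), -0.16 (endothelial and pericyte) and -0.12 (muscle fibre markers). The mean of 10 macrophage markers, 8 of them above background on some array, was between 6.63 and 6.94 in MCU knockout, between 6.20 and 7.19 in MCUb knockout and between 6.44 and 7.03 in control muscle. Satellite cells could not be followed in the same way, as 5 of their 7 markers, Pax7 and Myf5 among them, were not above background on any array. In whole muscle, fewer cells of a type and less RNA per cell cannot be told apart, and the part of the fibroblast content in the Igf1 levels was not tested.

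**Figure D2:**
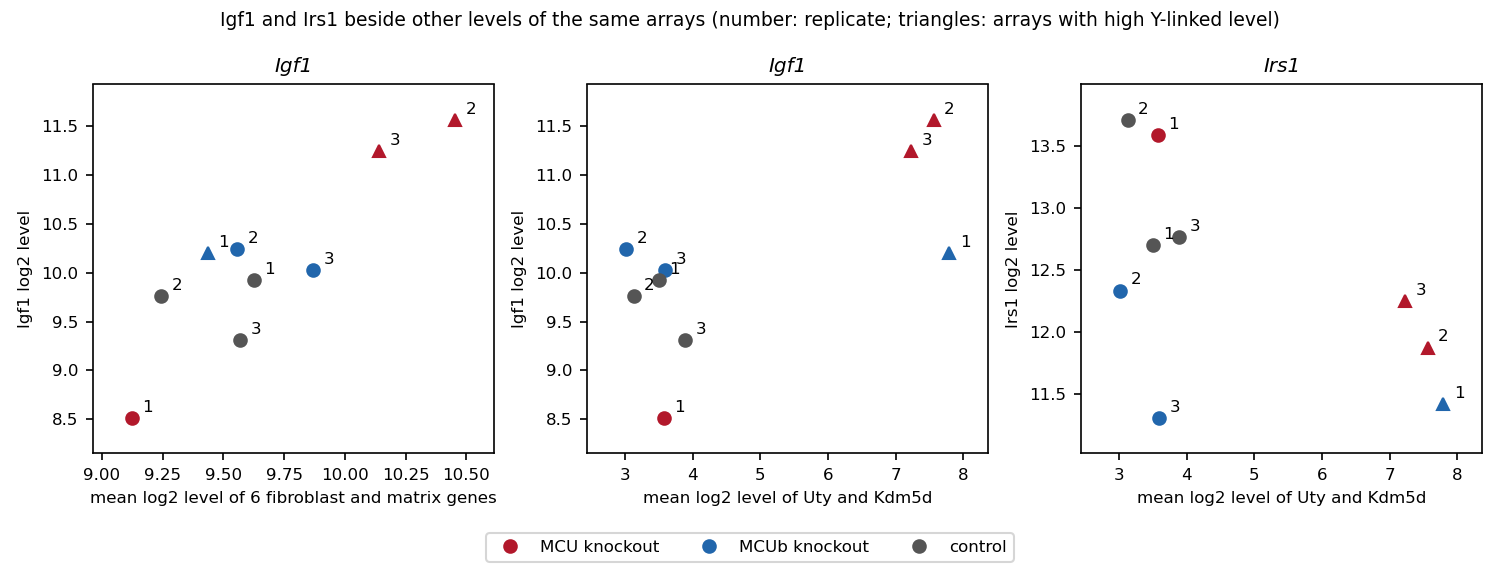
Log2 level of Igf1 against the mean log2 level of 6 fibroblast and matrix markers (left), and of Igf1 (middle) and Irs1 (right) against the Y-linked level (mean log2 level of Uty and Kdm5d). Each point is 1 array, coloured by genotype and numbered by replicate, and triangles are the 3 arrays with a high Y-linked level. MCU knockout replicates 2 and 3 sit at the top of both Igf1 panels (11.56 and 11.25), and Irs1 on the 3 high arrays lies between 11.42 and 12.25.

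Igf2 encodes insulin-like growth factor 2, an imprinted ligand most active before birth and early in life (probe set on chromosome 7). Its log2 levels were 9.20, 8.77 and 9.27 in MCU knockout muscle, 8.37, 8.28 and 8.71 in MCUb knockout muscle, and 8.78, 8.70 and 8.19 in control muscle. The lowest MCU knockout array lay just above the highest MCUb knockout array and just below the highest control array. The means were 9.08 ± 0.27 in MCU knockout, 8.45 ± 0.22 in MCUb knockout and 8.55 ± 0.32 in control muscle, and MCUb knockout and control were within their spread of each other. MCU knockout exceeded MCUb knockout by 0.63 (SE 0.22, 95% interval 0.13 to 1.12, unadjusted p = 0.0173, adjusted p = 0.709). It exceeded control by 0.53 (SE 0.22, 95% interval 0.03 to 1.02, unadjusted p = 0.0391, adjusted p = 0.474). Over the other settings tried, the difference between the knockouts stayed between 0.53 and 0.78.

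The receptors showed no difference that stood out from their spread. Igf1r, the receptor of both growth factors (chromosome 7), had log2 levels of 7.16, 7.06 and 7.36 in MCU knockout muscle, 7.45, 7.20 and 7.62 in MCUb knockout muscle, and 7.68, 7.29 and 6.92 in control muscle. The control arrays spanned the values of both knockouts. Igf1r differed by -0.10 between MCU knockout and control (95% interval -0.59 to 0.38), by 0.13 between MCUb knockout and control (-0.36 to 0.61) and by -0.23 between the knockouts (-0.72 to 0.25). Insr, the insulin receptor (chromosome 8), had log2 levels of 13.26, 12.91 and 13.22 in MCU knockout muscle, 13.24, 13.08 and 13.01 in MCUb knockout muscle, and 13.46, 13.31 and 12.47 in control muscle. Control replicate 3 gave the lowest value of both receptors. Insr differed by 0.05 between MCU knockout and control (95% interval -0.50 to 0.61), by 0.03 between MCUb knockout and control (-0.53 to 0.59) and by 0.02 between the knockouts (-0.53 to 0.58). Without control replicate 3 the Insr differences from control were -0.25 for MCU knockout and -0.28 for MCUb knockout, neither past the threshold. The receptor levels had Pearson r = 0.68 and Spearman rho = 0.57 over the 9 arrays.

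Irs1 encodes the first of the insulin receptor substrates and carries the largest difference of the set (chromosome 1). Its log2 levels were 13.58, 11.87 and 12.25 in MCU knockout muscle, 11.42, 12.33 and 11.31 in MCUb knockout muscle, and 12.70, 13.70 and 12.76 in control muscle. All MCUb knockout arrays lay below all control arrays, and the MCU knockout arrays spread over both ranges. From low to high the order was MCUb knockout (11.69 ± 0.56), MCU knockout (12.57 ± 0.90) and control (13.06 ± 0.56), and neither step between neighbours exceeded the spread of the MCU knockout arrays. MCUb knockout differed from control by -1.37 (SE 0.44, 95% interval -2.34 to -0.39), with an unadjusted p of 0.0103, an adjusted p of 0.534 and an exact permutation p of 0.1, the smallest this test can give. The difference stayed between -1.69 and -1.04 over the other settings, with adjusted p between 0.329 and 0.915. MCU knockout differed from control by -0.49 (SE 0.44, adjusted p = 0.732). That value was -0.99 without MCU knockout replicate 1, 0.53 on the 6 arrays with low Y-linked level and 0.15 with that level as a covariate. The knockouts differed by 0.88 (95% interval -0.09 to 1.86, adjusted p = 0.918).

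Irs2, the second substrate (chromosome 8), had log2 levels of 11.27, 9.84 and 10.69 in MCU knockout muscle, 11.35, 9.89 and 9.95 in MCUb knockout muscle, and 10.78, 10.55 and 10.47 in control muscle. Replicate 1 was the highest array of each genotype, and the knockout arrays spread to each side of the controls. Irs2 differed by 0.00 between MCU knockout and control (95% interval -0.91 to 0.91), by -0.20 between MCUb knockout and control (-1.11 to 0.71) and by 0.20 between the knockouts (-0.71 to 1.11). The means were 10.60 ± 0.72, 10.40 ± 0.83 and 10.60 ± 0.16 in MCU knockout, MCUb knockout and control muscle. The substrates were only loosely related over the 9 arrays (Pearson r = 0.30, Spearman rho = 0.20).

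The proximal promoters of the substrates are shown because Irs1 had the largest difference of the set and Irs2 is its close relative, whose difference from Irs1 was not tested. That of Mstn follows with its values. Both windows hold the palindromic motif CACGTG, the core of the E-box that factors such as USF, MYC and the clock proteins bind. Capitals mark the motif in the 250 bases upstream of the annotated start, read 5′ to 3′ along the gene from RefSeq (GRCm38.p6), for Irs1 at chr1:82291440-82291689 on the minus strand and for Irs2 at chr8:11008930-11009179 on the minus strand.
Irs1: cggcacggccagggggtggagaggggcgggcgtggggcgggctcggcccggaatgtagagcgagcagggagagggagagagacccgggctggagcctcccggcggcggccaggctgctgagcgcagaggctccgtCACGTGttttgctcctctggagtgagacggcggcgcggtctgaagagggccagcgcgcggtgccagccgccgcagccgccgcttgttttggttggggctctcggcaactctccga
Irs2: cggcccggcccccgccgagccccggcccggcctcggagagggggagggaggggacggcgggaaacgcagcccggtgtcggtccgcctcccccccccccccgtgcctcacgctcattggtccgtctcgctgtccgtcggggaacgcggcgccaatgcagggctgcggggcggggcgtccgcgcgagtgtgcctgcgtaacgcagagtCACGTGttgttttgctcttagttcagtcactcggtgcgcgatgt
The motif starts 115 bases before the start of Irs1 and 44 bases before that of Irs2. The longest identical runs of the windows are 10 bases long, and there are 2 of them, GTCACGTGTT, which spans the motif, and TGTTTTGCTC. CACGTG occurs on either strand in 6.02% of 32851 RefSeq promoter windows of the same length, and among the 8 genes of the set with a window (15 windows in all) only Irs1 and Irs2 hold it. A match describes these letters and shows no binding.

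The kinases were measured at different distances from the background. Akt1, the AKT isoform tied to growth (chromosome 12), had log2 levels of 5.75, 5.39 and 5.09 in MCU knockout muscle, 5.67, 6.12 and 6.09 in MCUb knockout muscle, and 5.91, 6.12 and 5.57 in control muscle. It was above background on 0 MCU knockout, 2 MCUb knockout and 2 control arrays, so its level in MCU knockout muscle is only bounded. The MCUb knockout mean was 1.04-fold over the limit of the MCU knockout arrays, though it includes an array under the limit (5.67). Measured means were 5.41 in MCU knockout and 5.96 in MCUb knockout muscle (limma, unadjusted p = 0.0361, adjusted p = 0.830). The control mean was not over that limit (measured means 5.41 in MCU knockout and 5.86 in control muscle, limma adjusted p = 0.537). MCUb knockout and control differed by 0.10 (95% interval -0.41 to 0.61).

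Akt2, the isoform that carries most of the insulin effect on glucose uptake (chromosome 7), was far above background. Its log2 levels were 13.36, 13.77 and 13.55 in MCU knockout muscle, 13.75, 13.37 and 13.84 in MCUb knockout muscle, and 13.72, 14.31 and 13.98 in control muscle. The 2 highest values were controls, while the lowest control array fell inside the range of each knockout. Akt2 differed by -0.44 between MCU knockout and control (95% interval -0.92 to 0.03, adjusted p = 0.517) and by -0.35 between MCUb knockout and control (-0.82 to 0.13, adjusted p = 0.682). The knockouts differed by -0.10 (-0.57 to 0.38), so the order from low to high was MCU knockout, MCUb knockout and control, with no step between neighbours past the threshold.

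Mstn encodes myostatin (chromosome 1). Its log2 levels were 11.54, 11.08 and 10.83 in MCU knockout muscle, 11.51, 11.29 and 12.03 in MCUb knockout muscle, and 12.23, 11.68 and 11.95 in control muscle. The highest MCU knockout array lay below the lowest control array, and the MCUb knockout arrays overlapped each of the other groups. From low to high the order was MCU knockout (11.15 ± 0.36), MCUb knockout (11.61 ± 0.38) and control (11.96 ± 0.27), with neighbours that overlapped. MCU knockout differed from control by -0.81 (SE 0.26, 95% interval -1.37 to -0.25), with an unadjusted p of 0.00897, an adjusted p of 0.361 and an exact permutation p of 0.1. In the ranking by p it stood at 550 of 22206 probe sets. MCUb knockout differed from control by -0.34 (95% interval -0.91 to 0.22, adjusted p = 0.732) and the knockouts from each other by -0.46 (-1.03 to 0.10, adjusted p = 0.948), so a difference between the knockouts was not shown. The MCU knockout difference was -0.81 without control replicate 3, -0.63 with Y-linked level as covariate and -0.42 on the 6 arrays with low Y-linked level, and its adjusted p lay between 0.152 and 0.983 over the settings tried.

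The Mstn promoter carries several copies of the general E-box CANNTG, the motif of the muscle regulators of the MyoD family, and a TATA box. Capitals mark CANNTG and TATAAA in the 250 bases upstream of the annotated start, from RefSeq (GRCm38.p6), chr1:53061390-53061639 on the plus strand.
Mstn: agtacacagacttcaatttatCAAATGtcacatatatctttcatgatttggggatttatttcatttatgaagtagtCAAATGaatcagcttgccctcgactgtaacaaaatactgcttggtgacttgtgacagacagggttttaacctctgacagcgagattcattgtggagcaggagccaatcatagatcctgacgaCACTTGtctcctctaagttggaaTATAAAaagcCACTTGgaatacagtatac
CANNTG begins 229, 174, 52 and 19 bases before the start, and TATAAA 29 bases before it. On either strand, CANNTG occurs in 66.2% and TATAAA in 12.4% of the 32851 RefSeq windows. CACGTG is itself a form of CANNTG, and none of the 4 copies here is that form. The forkhead motif GTAAACA, which 3.17% of windows hold, occurs in the set only in a window of Akt1.

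Fst encodes follistatin, the secreted antagonist of myostatin and activin (chromosome 13). Its log2 levels were 6.85, 6.54 and 7.04 in MCU knockout muscle, 6.33, 6.16 and 6.58 in MCUb knockout muscle, and 6.88, 6.41 and 6.56 in control muscle. Every array was above background, and each group overlapped with both others. The knockouts differed by 0.46 (SE 0.21, 95% interval -0.0025 to 0.92, unadjusted p = 0.0510, adjusted p = 0.877). Fst differed by 0.19 between MCU knockout and control (95% interval -0.26 to 0.65) and by -0.26 between MCUb knockout and control (-0.72 to 0.20).

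**Figure D3:**
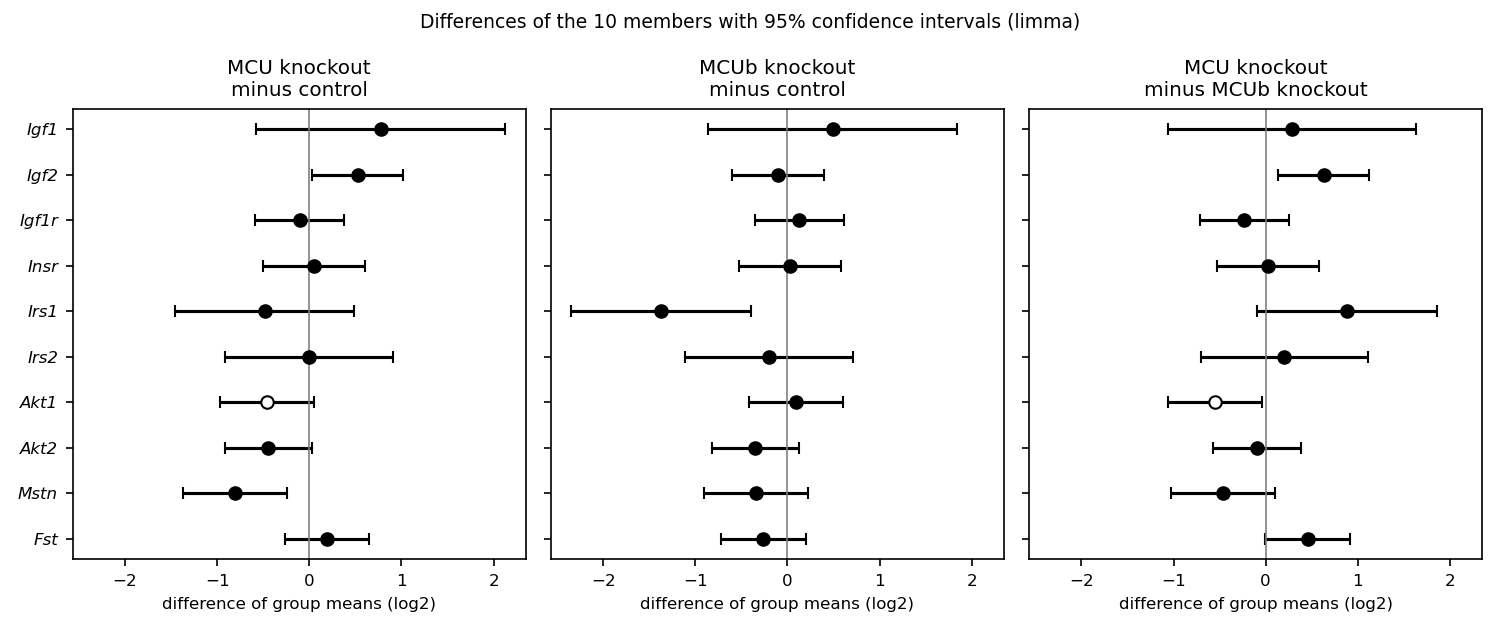
Difference of group means (log2, horizontal axis) of the 10 growth signalling genes in the 3 comparisons, with 95% confidence intervals from limma. Open points mark comparisons in which 1 group was not above background on any array (Akt1 in MCU knockout muscle). The intervals of Mstn (-1.37 to -0.25) in the first panel and of Irs1 (-2.34 to -0.39) in the second leave out 0 before adjustment over all probe sets.

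Within the set the closest pair was Igf2 and Fst, with Pearson r = 0.80 and Spearman rho = 0.78 over the 9 arrays. Igf1 ran against Mstn (r = -0.61, rho = -0.68) and against Irs1 (r = -0.58, rho = -0.68). The part of the 3 genotypes and of MCU knockout replicate 1 in these relations was not tested. All these values describe arrays that share a platform and a normalization. The genes whose pattern over the 9 arrays was most like that of a member were sought among 7836 named probe sets above background on all arrays. For Mstn they were Hadha, a subunit of the mitochondrial trifunctional protein of fatty acid oxidation (r = 0.95), AU040320 (r = 0.95) and Rogdi (r = 0.95). For Irs1 they were Srrt (r = 0.96), Gngt2 (r = 0.95) and Alpk3, a muscle protein kinase (r = 0.94). For Igf2 they were Nr2c1, an orphan nuclear receptor (r = 0.92, rho = 0.77), Pmp22, a myelin protein (r = 0.91, rho = 0.88), and Zcchc14 (r = 0.90, rho = 0.88). These genes were picked as the highest r of 7836 candidates over only 9 arrays. No relation between the genes is read from them, and shared regulation was not tested.

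Around these genes, 124 others of the same pathways were listed in 6 groups, of which 117 were measured and 95 were above background on some array. None of the 117 passed the threshold in any comparison (limma). At an unadjusted p under 0.05, 8 were higher and 12 lower in MCU knockout than in control muscle, 1 higher and 6 lower in MCUb knockout than in control muscle, and 8 higher and 3 lower in MCU knockout than in MCUb knockout muscle. These are 17.1%, 5.98% and 9.40% of the 117, against 10.1%, 8.11% and 5.7% of all probe sets. By direction, the shares of all probe sets that were higher were 4.76%, 3.9% and 2.68% in those comparisons, and the shares that were lower were 5.35%, 4.21% and 3.02%. Groups did not overlap for 20, 18 and 21 of the 117 in those comparisons (17.1%, 15.4% and 17.9%), against 13.4%, 12.8% and 12.8% of all probe sets, so these shares were not far from the background. The plot of differences by pathway shows list medians between -0.21 and 0.21. The lowest was that of insulin outputs between the knockouts. The highest was that of the myostatin and activin list between MCUb knockout and control. The medians of all probe sets were -0.02, -0.03 and 0.01 in those comparisons.

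**Figure D4:**
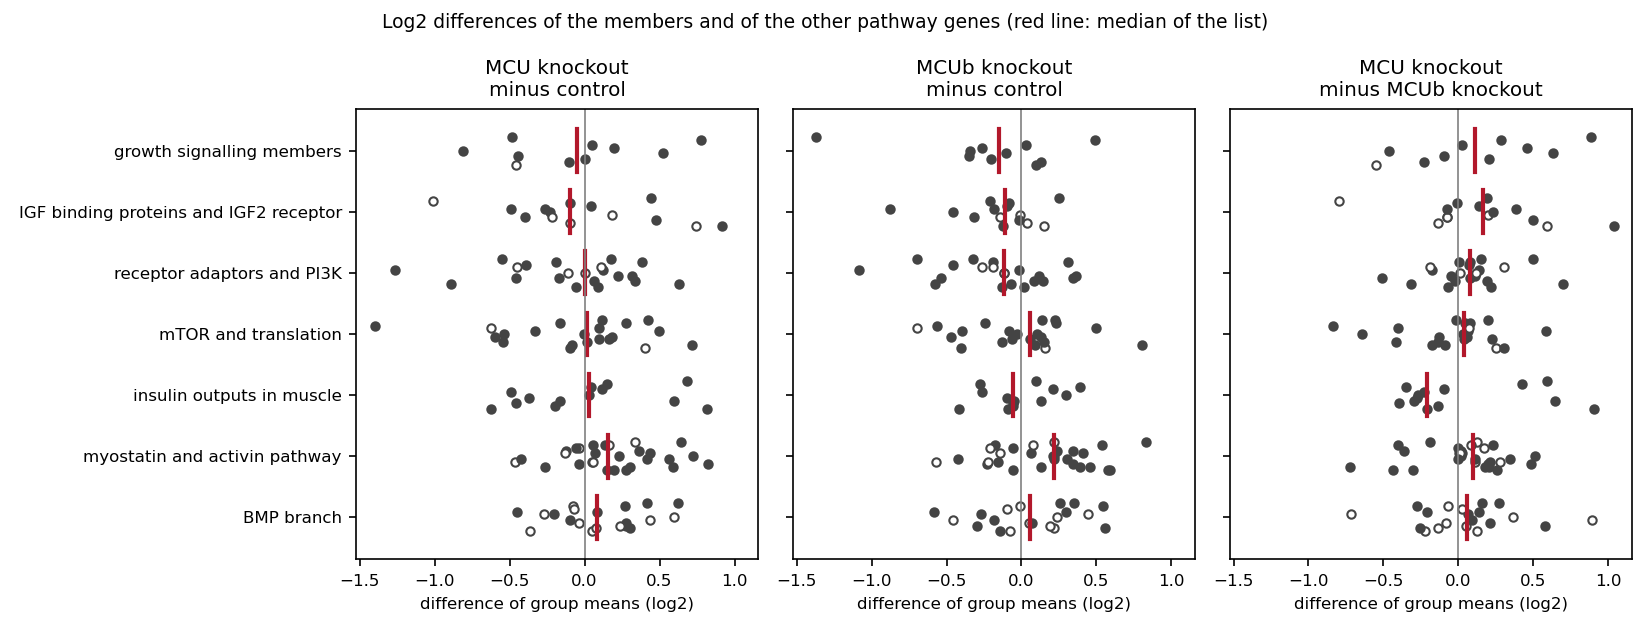
Difference of group means (log2, horizontal axis) of the 10 growth signalling genes and of the genes of 6 further pathway lists in the 3 comparisons. Each point is 1 gene, open where 1 group or both were not above background on any array, and red lines are medians. The medians lie between -0.21 and 0.21, and the lowest gene of the first panel is Mtor at -1.40.

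Among receptor adaptors and phosphoinositide 3-kinase genes, 21 of 23 were measured, and the median difference was 0.00 between MCU knockout and control, -0.12 between MCUb knockout and control and 0.08 between the knockouts. At an unadjusted p under 0.05, 0 were higher and 4 lower in MCU knockout than in control muscle, and 0 higher and 3 lower in MCUb knockout than in control muscle. In both directions together these are 19.0% and 14.3% of the 21 genes, against 10.1% and 8.11% of all probe sets, and with so few genes nothing about the list is read from them. Pik3r2, a regulatory subunit of the kinase, had log2 levels of 6.94, 7.33 and 6.99 in MCU knockout muscle, 7.51, 6.93 and 7.36 in MCUb knockout muscle, and 8.75, 7.63 and 8.67 in control muscle. All knockout arrays lay below all control arrays. It differed from control by -1.26 in MCU knockout (SE 0.29, adjusted p = 0.231) and by -1.08 in MCUb knockout muscle (SE 0.29, adjusted p = 0.477), comparisons that share the control arrays. Without control replicate 2, the lowest control, the MCU knockout difference was -1.62 and passed the threshold (adjusted p = 0.0231). Inpp5k, a lipid phosphatase that limits the signal, differed by -0.89 between MCU knockout and control (adjusted p = 0.334). Pdpk1, the kinase that activates AKT, differed by -0.70 between MCUb knockout and control (adjusted p = 0.527). Between the knockouts, Ptpn1, a phosphatase of the insulin receptor, differed by 0.70 and the adaptor Shc1 by 0.50 (adjusted p = 0.820 and 0.849).

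Of 23 mTOR and translation genes 21 were measured, with medians of 0.02, 0.06 and 0.04 between MCU knockout and control, between MCUb knockout and control, and between the knockouts. Mtor, the kinase itself, had log2 levels of 6.58, 6.99 and 7.27 in MCU knockout muscle, 7.43, 8.32 and 7.60 in MCUb knockout muscle, and 9.13, 7.46 and 8.45 in control muscle. The MCU knockout arrays were the lowest and did not overlap with either of the other groups. The difference from control was -1.40 (SE 0.39, limma adjusted p = 0.311), and it was -1.84 without control replicate 2, the lowest control (adjusted p = 0.0494). Leaving out that array also raised the calls over all probe sets in this comparison from 31 to 98. Tsc2, which holds the mTOR activator Rheb in check, had log2 levels of 11.56, 11.59 and 11.91 in MCU knockout muscle, 12.40, 12.39 and 12.20 in MCUb knockout muscle, and 12.32, 12.09 and 12.27 in control muscle. Again all MCU knockout arrays were the lowest. MCU knockout differed by -0.54 from control and by -0.65 from MCUb knockout (adjusted p = 0.373 and 0.455). Mtor differed by -0.83 between the knockouts (adjusted p = 0.877). Between MCUb knockout and control, the ribosomal protein gene Rps6 and Rheb both differed by -0.40 (limma adjusted p = 0.594 and 0.620).

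Of 14 insulin output genes in muscle 13 were measured, with medians of 0.03, -0.06 and -0.21 in the comparisons in the same order. Ppp1r3c, which targets a phosphatase to glycogen, had log2 levels of 15.68, 15.81 and 15.80 in MCU knockout muscle, 15.41, 15.04 and 15.07 in MCUb knockout muscle, and 15.12, 14.87 and 15.24 in control muscle. All MCU knockout arrays were above all others. Its differences were 0.69 from control and 0.59 from MCUb knockout (adjusted p = 0.300 and 0.570). Fbxo32, the ubiquitin ligase atrogin-1 of muscle atrophy, had log2 levels of 12.46, 11.79 and 12.27 in MCU knockout muscle, 11.83, 10.84 and 11.13 in MCUb knockout muscle, and 10.96, 11.71 and 11.40 in control muscle. It differed by 0.82 between MCU knockout and control (adjusted p = 0.412) and by 0.90 between the knockouts (adjusted p = 0.615). Between MCUb knockout and control, the glucose transporter gene Slc2a4 differed by 0.30 and its regulator Tbc1d4 by -0.42 (limma adjusted p = 0.645 and 0.691).

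In the myostatin and activin list, all 28 genes were measured and 20 were numerically higher in MCU knockout than in control muscle, where 10565 of the 22206 probe sets were, with a median of 0.16. The median was 0.21 between MCUb knockout and control and 0.09 between the knockouts. With every value under the background limit set to that limit, the 3 medians were 0.10, 0.18 and 0.01. Furin, the protease that cuts the myostatin precursor, had log2 levels of 7.57, 7.70 and 7.67 in MCU knockout muscle, 7.00, 6.99 and 7.50 in MCUb knockout muscle, and 6.34, 7.31 and 6.82 in control muscle. Every MCU knockout array exceeded every other array. The difference was 0.82 from control (SE 0.25, adjusted p = 0.345) and 0.48 from MCUb knockout (adjusted p = 0.921). Dcn, a matrix proteoglycan that binds myostatin and also one of the fibroblast markers above, differed by 0.56 between MCU knockout and control (adjusted p = 0.468). Fstl3, an antagonist related to follistatin, differed by 0.83 between MCUb knockout and control (adjusted p = 0.562), with 2 of 3 control arrays above background. The myostatin receptor gene Acvr2a differed by 0.41 between MCUb knockout and control (limma adjusted p = 0.620). Smad2, a transducer of the pathway, differed by -0.72 between the knockouts (adjusted p = 0.651), with 2 MCU knockout arrays above background.

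Of 20 genes of the related BMP branch, all measured, the medians were 0.08, 0.06 and 0.06. Smad5, a transducer of BMP signals, had log2 levels of 11.08, 10.77 and 10.88 in MCU knockout muscle, 10.86, 10.82 and 10.64 in MCUb knockout muscle, and 11.09, 11.32 and 11.66 in control muscle. All knockout arrays were below all control arrays, with differences of -0.45 in MCU knockout and -0.59 in MCUb knockout muscle (adjusted p = 0.474 and 0.534). The BMP target Id3 differed by 0.54 between MCUb knockout and control (limma adjusted p = 0.640), with groups that overlapped, and by 0.20 without MCUb knockout replicate 1. Id2, another target, was not above background in MCU knockout muscle. Its MCUb knockout mean was 1.13-fold over the limit of the MCU knockout arrays, with 2 MCUb knockout arrays above background (limma adjusted p of the difference 0.658). The ligand Gdf5 was not above background in MCU knockout or control muscle, and the receptor Bmpr1b, above it on 1 MCU knockout array and on no MCUb knockout array, gave no fold.

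Of 16 IGF binding and processing genes 14 were measured, with medians of -0.10, -0.11 and 0.17. Igf2r, the receptor that takes up and degrades IGF2, had log2 levels of 11.80, 11.71 and 11.44 in MCU knockout muscle, 11.26, 11.44 and 11.11 in MCUb knockout muscle, and 12.53, 11.79 and 12.11 in control muscle. The MCUb knockout arrays lay below the control arrays, with a difference of -0.88 (SE 0.22, adjusted p = 0.469). Igfals, the acid-labile subunit of circulating IGF complexes, was not above background in MCU knockout muscle. Its control mean was 1.38-fold over the limit of the MCU knockout arrays (limma adjusted p of the difference 0.471). That mean includes control replicate 1 at 5.14, itself under the limit, and the groups overlapped. Without control replicate 1, the only control below the limit, the fitted Igfals difference passed the threshold (adjusted p = 0.0448). Htra1, a protease that can cut IGF binding proteins, differed by 1.04 between the knockouts (adjusted p = 0.802). Igfbp6, which prefers IGF2, differed by -0.46 between MCUb knockout and control (limma adjusted p = 0.713), with groups that overlapped. Pappa was not above background in any of the 3 genotypes.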

How the data were processed

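Total RNA of 9 tibialis anterior samples was hybridised to Clariom S mouse arrays after Trizol extraction and 3' IVT Pico labelling, per the labels' protocols. Per the submitters' processing notes, Affymetrix Expression Console produced the deposited values, 1 per array and probe set. The sources used here do not give its version, summarisation, normalization or log base. The deposited values lay between 2.46 and 19.9 and were taken to be log2. The number of arrays limits the precision.

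Of 28846 values per array, 6640 of control features were left out. Probe sets were named through the platform annotation, and symbols through RefSeq. Of the 22206 probe sets, 19572 had 1 gene symbol and 2634 had none. A single limma model (version 3.58.1, R 4.3.3, lmFit and eBayes, two-sided) held the 3 genotype means over all arrays, without covariates. It left 6 residual degrees of freedom, to which the prior added 5.06. The Benjamini-Hochberg adjustment ran over all probe sets, with a threshold of 0.05. The code was checked on simulated data. Where no array of a genotype was above background, the fold is the brighter genotype's mean over the mean background limit of the dim one's arrays. The brighter mean can itself include arrays under the limit, so this fold is not a strict lower limit. The text names all 10 genes and, per comparison and pathway list, the 2 genes with the smallest unadjusted p. It also names, for the 3 genes with the smallest unadjusted p, the 3 probe sets with the highest Pearson r. Genes and lists were chosen with earlier results of these data known. Promoter windows are those of RefSeq (GRCm38.p6), matched by symbol for 8 of the 10 genes. Mcub was not analysed here. Other settings were 9 fits that leave out 1 array each and 10 further choices: quantile normalization, median centring, removal of dim probe sets, a floor at the background limit, array quality weights, a robust prior with intensity trend, fits of 2 genotypes only, a replicate block, the Y-linked level as a covariate, and the 6 arrays with a low Y-linked level.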

Additional observations from a re-analysis of the deposited data

How the results depend on the processing

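Over 19 other settings, none of the 10 genes met the threshold in MCUb knockout against control or between the knockouts (limma). Between MCU knockout and control, leaving out 1 array at a time gave 0 to 1 call, Igf1 without MCU knockout replicate 1. Among the other pathway genes it gave 0 to 2 calls in that comparison, Pik3r2 and Mtor without control replicate 2 and Igfals (1 call) without control replicate 1. Over all probe sets, 31 passed between MCU knockout and control, 5 between MCUb knockout and control and 35 between the knockouts. Leaving out 1 array gave 20 (MCU knockout replicate 3) to 98 (control replicate 2), 0 (control replicate 1, MCUb knockout replicate 1 or 3) to 20 (control replicate 2), and 13 (MCU knockout replicate 3) to 43 (control replicate 3). The 6 arrays with low Y-linked level gave 0, 0 and 3, and the Y-linked covariate gave 16 between MCU knockout and control. The floor gave 0 between MCUb knockout and control and 13 between the knockouts, array weights gave 61 between the knockouts, and a fit of 2 genotypes gave 1 between MCUb knockout and control. The cause was not tested.

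Of 30 differences of the 10 genes, 14 changed sign under some setting, none of them past the threshold at the setting that turned its sign. With the Y-linked covariate, the MCU knockout difference from control was -0.039 for Igf1, 0.15 for Irs1 and -0.17 for Irs2, and that between the knockouts was -0.13 for Igf1. On the 6 arrays with low Y-linked level it was -1.15 for Igf1 and 0.53 for Irs1 (MCU knockout against control), -0.036 for Insr (MCUb knockout against control), and -1.62 for Igf1 (between the knockouts). Outside the 10 genes, 1 difference of the other named genes changed sign, that of Htra1 between the knockouts (-0.072 on those 6 arrays). Array weights gave -0.12 for Insr and -0.11 for Irs2 (MCU knockout against control), and -0.013 for Igf1r and -0.13 for Insr (MCUb knockout against control). Median centring gave -0.0027 for Irs2 (MCU knockout against control) and -0.00092 for Insr (between the knockouts). Leaving out 1 array ranged from -0.29 to 0.086 for Igf1r, from -0.25 to 0.24 for Insr and from -0.33 to 0.38 for Irs2 between MCU knockout and control. Between MCUb knockout and control it ranged from -0.29 to 0.0080 for Igf2, from -0.058 to 0.32 for Igf1r, from -0.28 to 0.22 for Insr, from -0.68 to 0.051 for Irs2 and from -0.052 to 0.24 for Akt1. Between the knockouts it ranged from -0.28 to 1.25 for Igf1, from -0.041 to 0.13 for Insr, from -0.13 to 0.68 for Irs2 and from -0.24 to 0.0062 for Akt2.

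With the replicate block, 0 of the 10 genes and 0 of the other pathway genes passed in each comparison, and 24, 5 and 28 probe sets did. Same-numbered arrays had correlations of their deviations between -0.147 and 0.074. Such values cannot show whether the numbers mark a shared litter or day, which the labels do not state. No gene of the set has several probe sets, so a reading of other probe sets was not run. With 3 arrays per genotype, smaller log2 differences could not be called at the median SE. The size needed was 1.43 between MCU knockout and control, 1.75 between MCUb knockout and control and 1.40 between the knockouts.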
